A study of Mus musculus with 26 samples.

Results

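The nuclear genes of oxidative phosphorylation were taken as every gene whose symbol in the platform annotation begins with Ndufa, Ndufb, Ndufc, Ndufs, Ndufv, Sdh, Uqcr, Cox4, Cox5, Cox6, Cox7, Cox8 or Atp5. Assembly factors with the prefixes Ndufaf and Sdhaf (12 genes) were left out, as were 10 probe sets that carry several symbols. This gave 82 of the 18193 genes with a symbol of their own, read by 169 probe sets. By prefix, 36 belong to complex I, 4 to complex II, 8 to complex III, 17 to complex IV and 17 to complex V. The symbols are those of the rule, so Ndufa4, now regarded as a complex IV subunit, is counted under complex I, and Cox7a2l, a supercomplex factor, under complex IV.

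The values come from 26 single mouse retinal cells, 1 per Affymetrix expression array. All cells came from mice homozygous for a floxed Notch1 allele on a C57BL/6 background, electroporated in vivo on postnatal day 0 and collected on postnatal day 3. The 13 control cells (WT) received CAG:GFP, a GFP plasmid under a broadly active promoter, and no Cre, so they also carry the floxed allele. The 13 N1-CKO cells received CAG:Cre, which deletes the floxed part of Notch1, with CALNL-GFP, a reporter that Cre switches on. Cells of both groups were picked by their GFP, which marks electroporated cells and not a cell type. The labels name no animal, litter or session for any cell. Each group therefore counts as 1 sample, no test was made, and an SD below is the spread over cells. Depth has no equivalent here, and the number of arrays limits the precision.

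Oxidative phosphorylation makes ATP in the inner mitochondrial membrane. Complex I takes electrons from NADH and complex II from succinate, complex III hands them to cytochrome c, complex IV passes them to oxygen, and the proton gradient built on the way drives ATP synthesis by complex V. Nearly all subunits are encoded in the nucleus, and a core of complexes I, III, IV and V in mitochondrial DNA, which is not analysed here. Adult photoreceptors are among the cells with the highest oxygen use, whereas the dividing progenitors of the newborn retina are known for aerobic glycolysis. Several complex IV subunits come as isoforms tied to tissue or oxygen supply: Cox6a2, Cox7a1 and Cox8b in heart and skeletal muscle, Cox6b2 and Cox8c in testis, and Cox4i2 in lung and low oxygen.

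Detection in a cell means that the gene was among the brightest probe sets there, those at or above the 90th percentile (4504 probe sets per cell), so a detected transcript is bright and not simply present. Values are log2 of MAS5 signal with a floor of 4.65, and a difference is the mean of N1-CKO cells minus the mean of WT cells. Levels of different probe sets are not compared. Most of the genes were bright in most cells. The median gene of oxidative phosphorylation was detected in 21 of 26 cells, against 1 cell for the median of all genes. At least 24 cells detected 24 of the 82 genes (29.3%), against 1.3% of all genes. At least 20 cells detected 47 (57.3%), against 3.23% of all genes. At least 2 cells detected 75 (91.5%), against 45.5% of all genes. At the other end, 7 genes were detected in 0 or 1 cells, against 54.5% of all genes. By complex, the median number of cells was 19.5 for complex I, 17 for complex II, 19.5 for complex III, 17 for complex IV and 24 for complex V.

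**Figure D1:**
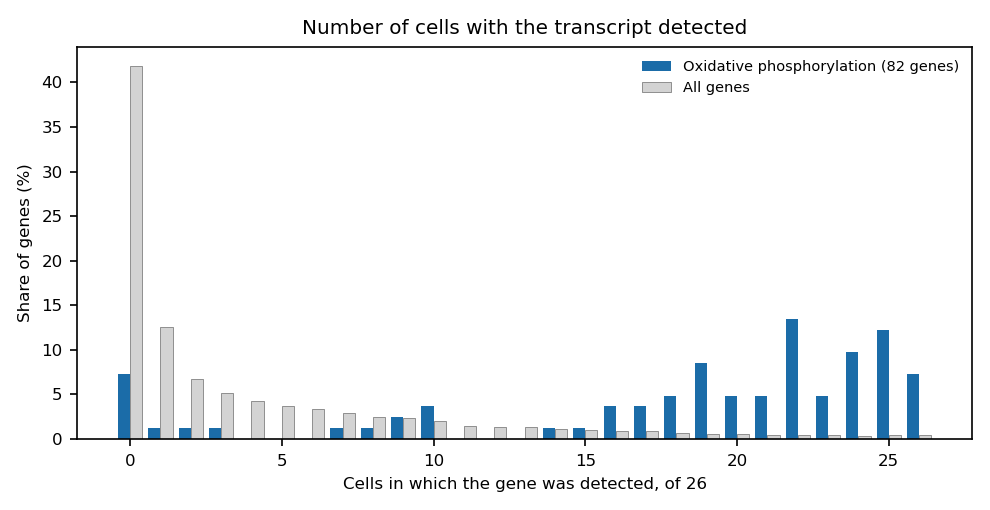
Share of genes (vertical axis, percent) by the number of cells, of 26, in which they were detected (horizontal axis), for the 82 genes of oxidative phosphorylation (blue) and all 18193 genes (grey). The blue bars lie mostly at 20 cells and above, and a small set of 6 genes lies at 0.

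The 6 genes detected in all 26 cells came from complexes IV and V. They were Atp5c1, the gamma subunit of the rotating stalk, Atp5pb, the b subunit of the stator, Atp5md, a small membrane subunit of ATP synthase, and Cox6c, Cox7a2l and Cox8a of complex IV. All genes together reached this in 0.495% of cases. Cox8a ranged from 11.17 to 14.98 (median 13.28) in WT cells and from 12.49 to 15.75 (median 13.78) in N1-CKO cells. Atp5pb ranged from 13.16 to 16.77 (median 14.23) and from 13.58 to 16.75 (median 14.57). The groups overlapped over nearly the whole range for both genes. Differences of the 6 genes lay between 0.06 (Atp5c1) and 0.39 (Atp5md).

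Among the complex IV isoforms, the widely expressed Cox6a1, Cox7a2 and Cox8a were detected in 24 to 26 cells. The muscle and testis isoforms Cox7a1, Cox8b and Cox8c were detected in 0 cells and Cox6a2 in 1, whereas the testis isoform Cox6b2 was detected in 7. Some of their promoters, printed here to set a detected isoform beside undetected ones, are the 250 bases before the start of the gene in RefSeq's GRCm38.p6 annotation, 5′ to 3′ on the strand of the gene. Capitals mark each CG dinucleotide. Cox8a was detected in 26 cells and its window (chr19:7217617-7217866, minus strand) holds 11 CG. Cox8b was detected in 0 cells and its window (chr7:140900447-140900696, minus strand) holds 1. Cox7a1, also detected in 0 cells, has 4 (chr7:30183921-30184170, plus strand).
Cox8a: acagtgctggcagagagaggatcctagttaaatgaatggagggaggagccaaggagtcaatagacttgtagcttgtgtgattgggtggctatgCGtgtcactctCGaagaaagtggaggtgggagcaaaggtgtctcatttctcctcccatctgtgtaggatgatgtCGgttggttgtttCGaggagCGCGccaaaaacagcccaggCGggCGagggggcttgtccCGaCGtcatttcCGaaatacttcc
Cox8b: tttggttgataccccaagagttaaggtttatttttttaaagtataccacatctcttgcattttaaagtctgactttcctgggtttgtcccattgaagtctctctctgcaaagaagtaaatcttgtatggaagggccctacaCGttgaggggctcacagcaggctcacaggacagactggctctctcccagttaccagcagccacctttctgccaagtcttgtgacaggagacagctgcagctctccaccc
Cox7a1: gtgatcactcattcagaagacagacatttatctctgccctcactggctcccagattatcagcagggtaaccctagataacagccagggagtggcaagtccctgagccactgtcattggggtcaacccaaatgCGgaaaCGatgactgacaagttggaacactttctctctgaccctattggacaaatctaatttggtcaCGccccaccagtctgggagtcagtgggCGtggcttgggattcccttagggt

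Of the 82 genes, 67 had such a window in the table. Their median was 14 CG, against 6 over the windows of all 27025 genes there, and 4 of the 67 (Cox7a1, Cox8b, Ndufc2 and Uqcr10) lay below 6. Ndufc2 was detected in 25 cells and Uqcr10 in 18, so a window with few CG did not go with a dim transcript in every case. The 5 genes with a window that were detected in 0 or 1 cells ranged from 1 to 27 CG, and the 40 detected in at least 20 cells from 4 to 35. Nuclear respiratory factor 1 (NRF1) and the ETS factor GABP are known activators of respiratory genes. The NRF1 motif, searched on both strands as GCGCA, then 1 base of any kind, then GCGC, was found in 11 of the 67 windows (16.4%) and in 4.23% of all windows. The ETS motif CCGGAAG was found in 12 (17.9%) and in 7.83% of all windows. The YY1 motif AAGATGG was found in 1 window (1.49%) and in 5.18% of all, and the TATA motif TATAAA in 7 (10.4%) and in 14.3%. At least 1 of the NRF1 and ETS motifs was in 20 of the 67 windows (29.9%), against 11.3% of all, and 3 windows held both. All motifs were searched on both strands and none contains another. The NRF1 and ETS motifs hold CG themselves, in which these windows are rich, and a match is not a binding site.

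The windows with more than 1 NRF1 match were those of Sdha, the catalytic subunit of complex II, with 3, Ndufb4 of complex I with 3, and Cox6a1, a widely expressed complex IV isoform, with 2. Those of Sdha and Cox6a1 are shown because both genes return among the results. Capitals mark the matches, Sdha (chr13:74350241-74350490, minus strand) and Cox6a1 (chr5:115348959-115349208, minus strand).
Sdha: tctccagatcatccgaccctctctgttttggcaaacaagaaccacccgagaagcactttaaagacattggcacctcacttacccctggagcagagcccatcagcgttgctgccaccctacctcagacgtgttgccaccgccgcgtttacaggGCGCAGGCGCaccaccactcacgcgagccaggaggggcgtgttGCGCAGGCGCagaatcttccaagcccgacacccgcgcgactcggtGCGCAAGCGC
Cox6a1: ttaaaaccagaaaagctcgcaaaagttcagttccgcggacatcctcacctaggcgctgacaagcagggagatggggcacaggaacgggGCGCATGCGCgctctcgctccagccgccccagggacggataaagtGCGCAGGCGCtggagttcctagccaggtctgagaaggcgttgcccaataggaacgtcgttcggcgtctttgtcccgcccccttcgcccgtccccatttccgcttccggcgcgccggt

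Differences between the groups were small against the spread over cells. Of the 75 genes detected in at least 2 cells, 32 had a higher mean in N1-CKO cells (42.7%, against 48.5% of all genes) and 43 a lower one. The median of the differences was -0.22 (range -2.30 to 3.45). The median over all 8280 genes detected in at least 2 cells was -0.04. The negative sign of the respiratory median did not hold within the array sets. It was 0.06 on arrays with high 18S signal, below the 0.18 of all genes there. On those with low 18S signal it was 0.13, above the -0.15 of all genes. A mean at least 1 log2 unit higher was found for 14 genes (18.7%), where 19.1% of all genes were past it. A mean at least 1 log2 unit lower was found for 15 of the 75 genes, where 22.3% of all genes were past it. Both shares lie near the background. The SD was larger in N1-CKO cells for 42 of the 75 genes (56.0%), against 52.5% of all genes. No gene of the 75 differed by more than both of its SDs, as 1.55% of all genes did. Over all 82 genes the median was -0.15. Over the 47 genes detected in at least 20 cells it was -0.10, with 8 genes past 1 upward and 6 downward, where 12.9% and 15.1% of all such genes were past it.

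**Figure D2:**
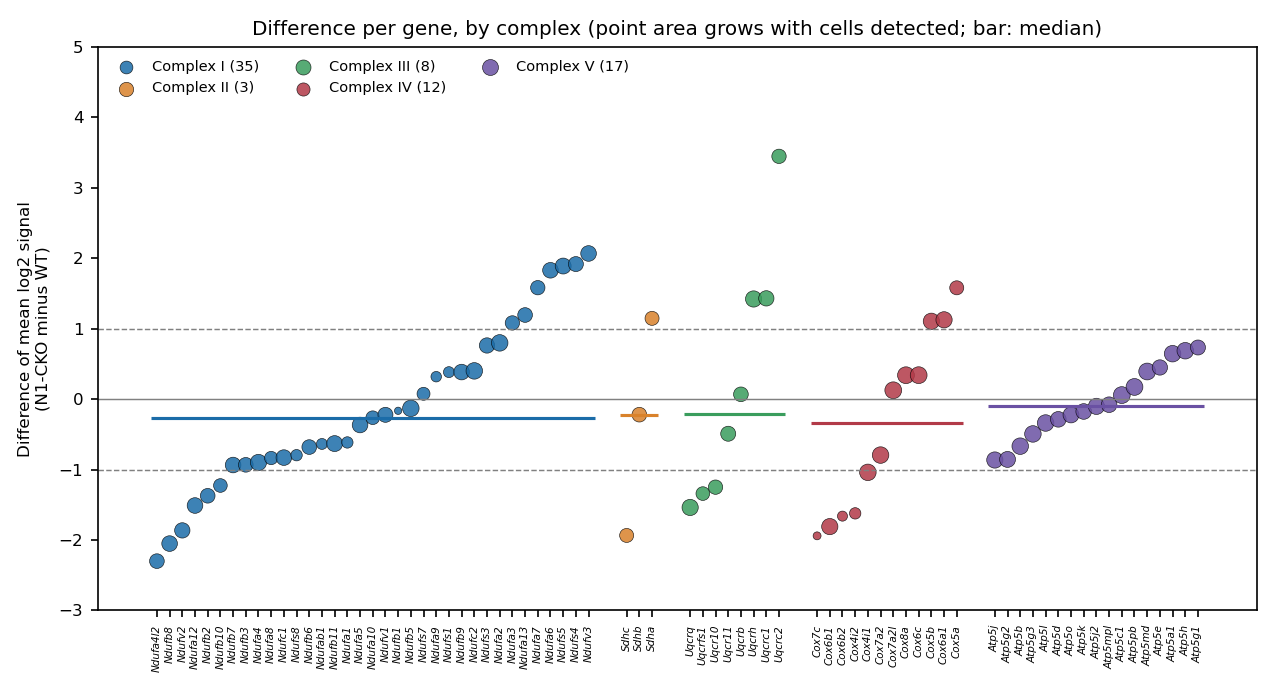
Difference of mean log2 signal, N1-CKO minus WT (vertical axis), for the 75 genes detected in at least 2 cells, ordered within each complex. Coloured bars are the medians of the complexes, dashed lines lie at 1 log2 unit, and a larger point was detected in more cells. Complexes I to IV spread past both lines and complex V stays between them.

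1 cell weighed on the direction of these summaries. N1-CKO cell 10 had the fewest genes of oxidative phosphorylation detected, 33 of 82, and the 24 genes detected in at least 24 cells were missed 26 times in all, 8 of them in this cell. The low count was not limited to respiratory genes. Of all genes seen in at least 20 cells, N1-CKO cell 10 detected 60.5%, and the next lowest share was 71.8%, in WT cell 9. Without N1-CKO cell 10, 40 of the 75 genes were higher, where 48% of all genes were, and 35 lower, and the median was 0.05. The genes past 1 log2 unit were then 17 upward (22.7%, against 19.2% of all genes) and 14 downward (18.7%, against 22.4%). Without any other single cell the median stayed negative, down to -0.33 without N1-CKO cell 7. N1-CKO cell 10 was not dim in every gene of the set: Atp5c1 stood at 16.57 and Cox8a at 15.75 there, the highest N1-CKO value of each, while Cox4i1, Cox6b1 and Cox7a2 were at the floor.

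A difference of means mixes the number of cells that detect a transcript with its level in them. Level alone was compared over the detecting cells, for the 66 genes detected in at least 6 cells of each group. Their median difference in level was 0.13 (range -0.76 to 1.16), with 40 higher and 26 lower, where 55.5% of genes under the same limit were higher, and the median over the 1620 genes that met the same limit was 0.08. Of the 66, Ndufb9 (1.16) and Uqcrh (1.15) differed by at least 1 log2 unit, 3.03% of the 66, against 9.14% of the 1620 genes.

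**Figure D3:**
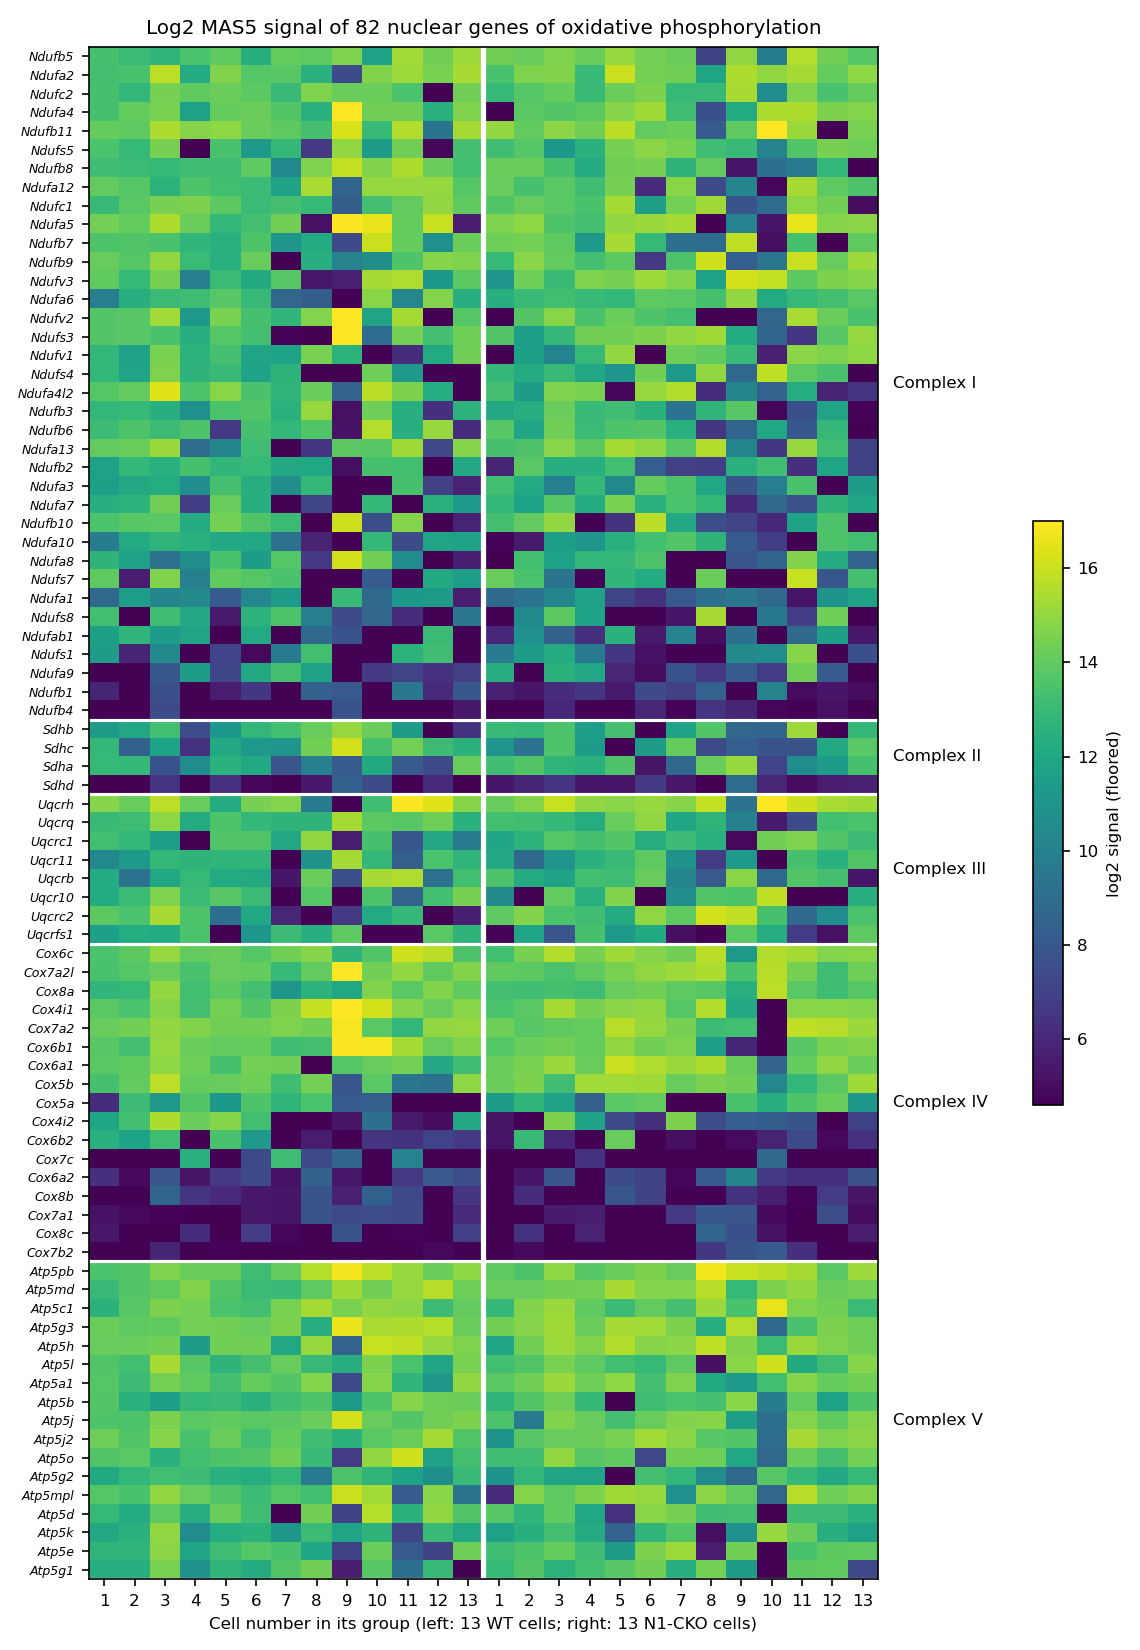
Log2 signal (colour) of the 82 genes (rows, by complex and within it by the number of cells detected) in each of the 13 WT cells (left) and 13 N1-CKO cells (right). Upper rows of each complex are bright in nearly all cells, middle rows drop to the floor in single cells, and the lowest rows of complexes I, II and IV are dark throughout.

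Complex I had a median difference of -0.26, with 14 genes higher and 21 lower of 35, and a median of 0.00 without N1-CKO cell 10. Its NADH-binding arm, where electrons enter, had a median of 0.59 with 5 of 8 genes higher, where 48.5% of all genes were. The membrane arm, which pumps protons, had -0.63 with 12 of 17 genes lower. The quinone-binding part between them had -0.15 over 4 genes (range -0.80 to 0.76). These parts were read from lists drawn up with earlier results known, and their difference was not tested. Their medians were not computed within the array sets, so whether the signs hold there is not known. The lists do not hold all genes of the complex, and a median over 4 genes depends on which are listed.

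Ndufv3, an accessory subunit at the NADH-binding site, had the highest mean difference of complex I. It ranged from 5.42 to 15.52 (median 13.06) in WT cells and from 11.06 to 16.19 (median 14.53) in N1-CKO cells. WT cells 4, 8 and 9 lay below all N1-CKO cells, and the remaining values overlapped. The means were 12.10 ± 3.29 and 14.17 ± 1.47, a difference of 2.07, with 10 and 12 cells detected, 3.50 on high and 1.17 on low 18S arrays. Ndufs4, an accessory subunit whose loss causes Leigh-like disease in mice, ranged from 4.65 to 14.61 (median 11.84) and from 4.65 to 15.83 (median 12.87). Its difference of 1.92 came from the arrays with high 18S ribosomal RNA signal (5.40), and on the other arrays it was -0.26.

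Ndufb8, a membrane-arm subunit, had one of the lowest differences, -2.05. It ranged from 10.39 to 15.87 (median 13.26) in WT cells and from 4.65 to 14.48 (median 12.83) in N1-CKO cells. The medians were close, and N1-CKO cells 9 to 11 and 13 lay below every WT cell. On high 18S arrays the difference was -4.63 and on low 18S arrays -0.44. The probe set of Ndufb8 not marked as shared differed by -0.20 but was detected in 0 cells, so it does not bear on the difference. Ndufa4l2, a paralog of Ndufa4 known to be induced in low oxygen, had the lowest difference, -2.30. It ranged from 4.67 to 16.40 (median 13.73) in WT cells and from 4.76 to 15.57 (median 11.35) in N1-CKO cells. Detection was found in 11 cells of WT and 8 of N1-CKO, the groups overlapped throughout, and the difference was -2.68 on high and -2.06 on low 18S arrays. It was -1.17 when limited to the 11 WT and 8 N1-CKO cells whose Gapdh ratio, a sign of RNA quality described further on, did not exceed 3. Ndufa4 itself was detected in 13 and 11 cells, with 13.91 ± 1.30 and 13.01 ± 3.25, a difference of -0.90 that was -0.20 without N1-CKO cell 1.

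Other genes of complexes I and III came under 1 log2 unit when 1 cell was left out. Ndufa13 stood at 0.61 without WT cell 7 and Ndufa3 at 0.63 without WT cell 9. Ndufa12 stood at -0.92 without N1-CKO cell 10, Ndufb10 at -0.77 without N1-CKO cell 4 and Uqcr10 at -0.76 without N1-CKO cell 6. For Ndufa3, Ndufb10 and Uqcr10, other cells of the same group stood at the floor too, and Ndufa13 was also dim in other WT cells. For these genes the cell named is therefore not the only one whose removal has this effect.

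Complex II, which is also the succinate dehydrogenase of the citric acid cycle, had 3 genes detected in at least 2 cells, with differences of both signs. Their median of -0.22 turned to 0.01 to 0.32 without WT cell 8, 9 or 10 or N1-CKO cell 6 or 12. Sdhc, a membrane anchor, was detected in 11 cells of WT and 6 of N1-CKO. It ranged from 6.41 to 16.15 (median 12.59) in WT cells and from 4.65 to 14.08 (median 11.07) in N1-CKO cells. Its difference of -1.94 was -5.32 on high 18S arrays, where 5 of 5 WT cells and 1 of 5 N1-CKO cells detected it, and 0.18 on low 18S arrays, where 6 and 5 of 8 cells did. Sdha ranged from 7.36 to 14.10 (median 10.63) and from 5.25 to 15.09 (median 12.73). With 7 and 10 cells detected, it differed by 1.15, or 0.86 without N1-CKO cell 9. Another probe set of Sdha, detected in 5 and 5 cells, differed by -1.43, so its direction is not settled. Sdhb, the iron-sulphur subunit, differed by -0.22 (10 and 9 cells). Sdhd, the other anchor, was detected in 0 cells by either of its probe sets, with the brighter one at most 9.03.

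Complex III had the widest range of differences among the complexes, with 3 of 8 genes past 1 upward and 3 downward, where 19.1% and 22.3% of all genes were past it. Its median of -0.21 was 0.12 without N1-CKO cell 8 and 0.18 without N1-CKO cell 10. Uqcrc2, a core protein on the matrix side, had the largest difference of all 82 genes. It ranged from 4.65 to 15.39 (median 11.98) in WT cells and from 8.90 to 16.15 (median 13.50) in N1-CKO cells. Of the WT cells, 5 (cells 7, 8, 9, 12 and 13) lay below every N1-CKO cell, and the other WT cells overlapped them. The means were 10.00 ± 3.98 and 13.45 ± 1.98, a difference of 3.45, with 7 and 11 cells detected. The difference was 5.34 on high and 2.26 on low 18S arrays, 3.00 to 3.90 with any 1 cell left out, and 2.03 by its other probe set (7 and 9 cells). As a difference of medians it was 1.52. In the cells that detected it, its level differed by 0.78.

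Uqcrc1, the partner core protein, differed by 1.43 (9 and 12 cells), or 0.89 without WT cell 4. Uqcrh, the hinge protein next to cytochrome c1, differed by 1.42 (12 and 12 cells), or 0.68 without WT cell 9. Uqcrq, a small membrane subunit, ranged from 12.25 to 15.31 (median 13.17) in WT cells and from 5.5 to 14.92 (median 12.86) in N1-CKO cells. Its difference of -1.54 was -1.0 without N1-CKO cell 10 and was 0.17 on low 18S arrays. Uqcrfs1, the Rieske iron-sulphur protein, differed by -1.34 (9 and 7 cells), or -0.94 without N1-CKO cell 8. The subunits of complex III thus had differences of both signs.

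Complex IV had 6 genes higher and 6 lower of 12, with a median of -0.33. That median was -0.01 without N1-CKO cell 10, 0.36 on low 18S arrays and 0.23 over its genes detected in at least 20 cells. Cox4i1, the regulatory subunit common to most tissues, ranged from 13.30 to 17.07 (median 14.53) in WT cells and from 4.65 to 15.56 (median 14.70) in N1-CKO cells. The N1-CKO minimum was cell 10, the next lowest value was 12.06, and the difference of -1.04 was -0.29 without that cell. Cox6b1, which faces the intermembrane space, ranged from 13.18 to 16.93 (median 14.11) and from 4.65 to 14.93 (median 14.16). Its difference of -1.81 became -1.14 without N1-CKO cell 10 and was 0.36 on low 18S arrays. Cox7a2, with 13 and 12 cells detected, had a difference of -0.79 that was -0.04 without the same cell.

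Higher means in N1-CKO cells were found for Cox5a and Cox5b, which lie on the matrix side of the enzyme, and Cox6a1, which spans the membrane. Cox5a, detected in 7 and 10 cells, ranged from 4.65 to 13.67 (median 11.21) in WT cells and from 4.65 to 14.22 (median 12.32) in N1-CKO cells. The groups overlapped fully, and the difference was 1.58, with 3.29 on high and 0.51 on low 18S arrays. Cox6a1 (12 and 12 cells) differed by 1.13, or 0.41 without WT cell 8, the only WT cell that did not detect it. Cox5b (11 and 13 cells) differed by 1.11, or 0.69 without WT cell 9.

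The isoforms of complex IV that are linked to other tissues or to low oxygen were seen in few cells. Cox4i2 was bright in 7 cells of WT and 3 of N1-CKO, ranging from 4.65 to 15.47 (median 11.93) and from 4.65 to 14.56 (median 7.52). All 7 WT cells lay on low 18S arrays, 7 of the 8 there, whereas 2 of 8 N1-CKO cells there and 1 of 5 on high 18S arrays detected it. Its difference of -1.62 was accordingly -4.74 on low 18S arrays and 3.37 on high 18S arrays. In the 10 cells that detected Cox4i2, Cox4i1 was detected too, and 9 of them also detected Ndufa4l2, as did 10 of the 16 cells without Cox4i2. Over the 26 cells the log2 signals of Cox4i2 and Ndufa4l2 had Pearson's r of 0.38 and Spearman's rho of 0.45, from values that share an array and its brightness.

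Cox6b2 was detected in 5 cells of WT (1, 2, 3, 5 and 6) and 2 of N1-CKO (2 and 5). Each of these 7 arrays had low 18S signal and each cell also detected Cox6b1. Its difference was -1.66. Cox6a2 was detected in 1 cell, N1-CKO cell 9 at 10.26. Cox7a1, Cox8b, Cox8c and Cox7b2 were detected in 0 cells, with no value above 8.6. The counterparts Cox6a1, Cox7a2 and Cox8a were each detected in at least 24 cells. Cox7c, which is common to all tissues, was detected in only 3 WT cells.

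**Figure D4:**
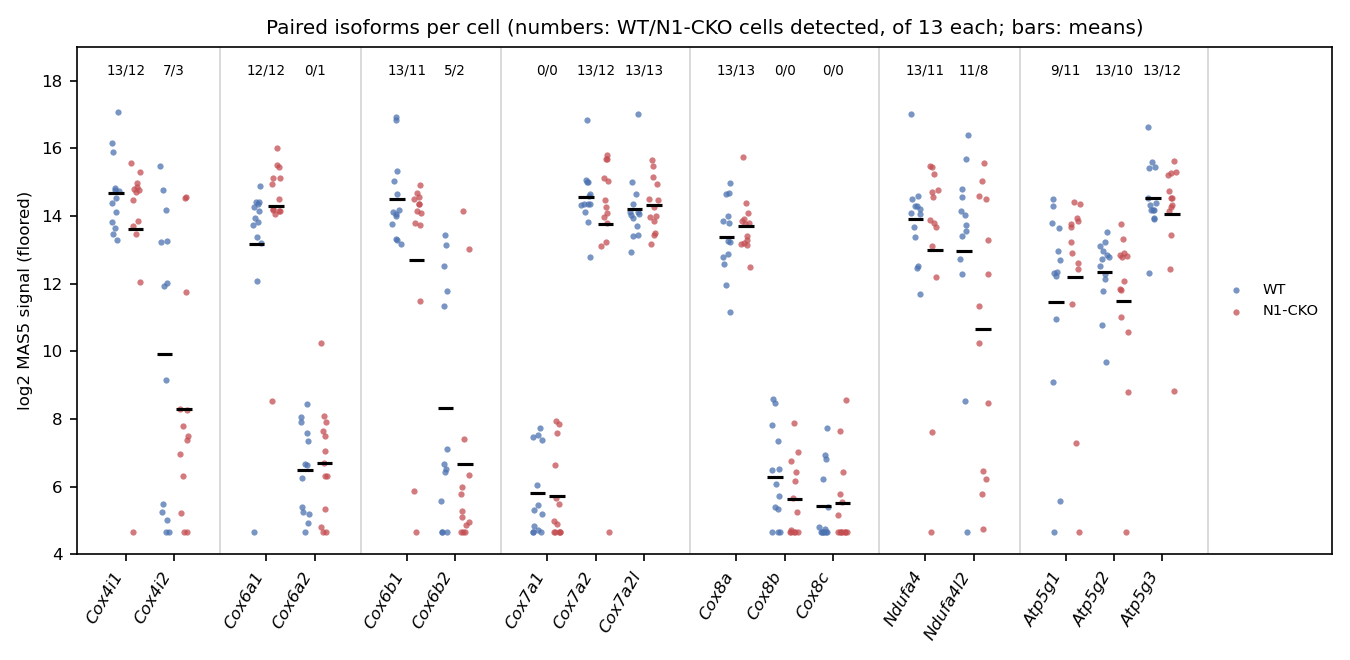
Log2 signal (vertical axis, floored) of isoform families in single cells, WT in blue and N1-CKO in red, with group means as black bars and the number of cells detected, WT/N1-CKO, above each gene. Cox4i2 and Cox6b2 split into bright and dark cells, and Cox6a2, Cox7a1, Cox8b and Cox8c stay below 10.5 throughout.

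For 1 of the genes detected in 0 cells the rule on several symbols mattered. Ndufb4, a membrane-arm subunit of complex I, was detected in 0 cells by the probe set that carries its symbol alone. Another pair of probe sets, which list Ndufb4 with its near copies Ndufb4b and Ndufb4c, were detected in 9 WT and 10 N1-CKO cells and in 10 and 10 cells. They were left out by the rule, and which copy they read cannot be told from them. For Sdhd and Cox7c no such probe set was present, and whether their probe sets miss the transcript was not tested.

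The genes of complex V had the narrowest range of differences among the complexes with more than 3 measured genes. Differences of its 17 genes lay between -0.86 and 0.73, with 7 higher, 10 lower and a median of -0.10. That median was 0.05 to 0.12 without WT cell 3 or N1-CKO cell 1, 5 or 10. No gene of complex V was past 1 log2 unit in either direction, against the 19.1% and 22.3% of all genes given above, and all 17 were detected in at least 20 cells, where 12.9% and 15.1% of genes were past it. This gap was not tested. Within the array sets some genes of complex V were past 1. Atp5g3 stood at -1.98 on high and 0.44 on low 18S arrays, Atp5g2 at -0.12 and -1.31, and Atp5g1 at 0.24 and 1.04. The catalytic head and central stalk had a median of 0.06 (5 genes), the peripheral stalk -0.03 (4 genes) and the membrane ring of c subunits -0.49 (3 genes). Without N1-CKO cell 10, Atp5g1 (1.36), Atp5e (1.09) and Atp5g2 (-1.05) would be past 1, and Atp5c1 would stand at -0.14.

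The c subunit of the ring is encoded by 3 genes that make the same mature protein. Atp5g1 ranged from 4.65 to 14.50 (median 12.35) in WT cells and from 4.66 to 14.43 (median 13.25) in N1-CKO cells, and differed by 0.73 (9 and 11 cells). Atp5g2 ranged from 9.69 to 13.53 (median 12.72) and from 4.65 to 13.77 (median 12.08), and differed by -0.86 (13 and 10 cells), or -0.29 without N1-CKO cell 5. Atp5g3 ranged from 12.31 to 16.65 (median 14.34) and from 8.83 to 15.64 (median 14.53), and differed by -0.49 (13 and 12 cells), or -0.06 without N1-CKO cell 10. For all 3 genes the groups overlapped. Of the stalk genes, Atp5h (subunit d, 12 and 13 cells) differed by 0.69 and Atp5j (coupling factor 6, 13 and 11 cells) by -0.86.

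Cells differed from one another more than the groups did. WT cells detected 38 to 70 of the 82 genes (median 57) and N1-CKO cells 33 to 67 (median 59). Averaged over the 82 genes, log2 signal was 11.50 ± 0.69 for the 13 WT cells and 11.40 ± 0.73 for the 13 N1-CKO cells (SD over cells). The lowest counts were those of WT cell 9 (38) and N1-CKO cell 10 (33), and the highest those of WT cell 6 (70) and N1-CKO cell 4 (67). The lowest cells were low in several complexes. They also detected the smallest shares of all genes seen in at least 20 cells, 71.8% in WT cell 9 and 60.5% in N1-CKO cell 10. WT cell 9 detected 15 genes of complex I, 3 of complex III, 7 of complex IV and 11 of complex V. N1-CKO cell 10 detected 14, 5, 5 and 9. It detected 0 of complex II, as did WT cell 4.

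**Figure D5:**
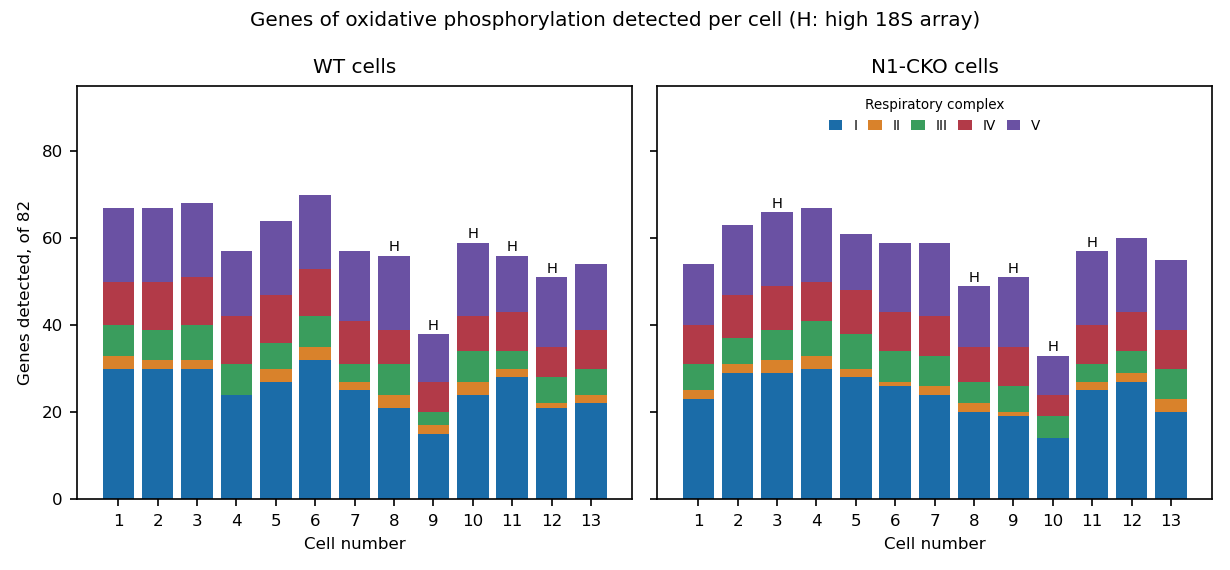
Number of genes detected in each cell (vertical axis, of 82), stacked by complex, for WT cells (left) and N1-CKO cells (right). H marks arrays with high 18S signal, among which are the lowest cell of each group, WT cell 9 with 38 and N1-CKO cell 10 with 33.

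Counts of genes detected per cell were compared between complexes. Over the 26 cells, complexes I and IV had r of 0.80 and rho of 0.75, and complexes I and V 0.62 and 0.55. Complexes I and III had 0.47 and 0.47, III and V 0.47 and 0.43, and IV and V 0.60 and 0.37. For III and V, the values were 0.81 and 0.74 in WT cells and 0.18 and 0.09 in N1-CKO cells. The count over all 82 genes correlated with the share of all genes seen in at least 20 cells that a cell detected, r of 0.91 and rho of 0.83, a share that holds 47 of the same genes. It also correlated with the number of probe sets above a common signal of 1252 on the array, r of 0.79 and rho of 0.74. Counts from 1 array share its amplification and brightness, and the part of these in the result was not tested. High 18S arrays detected fewer genes of oxidative phosphorylation in both groups, 52.0 ± 8.34 in WT (n = 5 cells) and 51.2 ± 12.1 in N1-CKO (n = 5), than low 18S arrays, 63.0 ± 6.09 (n = 8) and 59.8 ± 4.17 (n = 8). Of the 29 genes past 1 log2 unit, 21 differed in the same direction on high and low 18S arrays (72.4%), against 78.4% of all genes past it. Over all 75 the share was 56.0%, against 51.3%. A sign of RNA quality, Gapdh control signal at the 3′ end over that at the 5′ end, lay between 1.40 and 3.26 in WT cells and between 1.46 and 245 in N1-CKO cells. Its log2 value correlated with the count at r of 0.08 and rho of -0.02 over all cells, at -0.11 and -0.19 in WT cells and at 0.24 and 0.32 in N1-CKO cells.

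Markers of retinal cell types differed between the groups. All 12 markers of dividing cells that were measured had lower means in N1-CKO cells (median -3.04), as did 8 of 9 progenitor markers (median -1.77). Of 7 photoreceptor markers 6 were higher (median 2.57), and of 8 neuronal markers 6 were higher (median 2.14). WT cells detected 0 to 12 markers of dividing cells (median 7) and N1-CKO cells 0 to 8 (median 2). The number of respiratory genes detected per cell correlated with the number of these markers at r of 0.76 and rho of 0.67 in the 13 WT cells and at 0.43 and 0.35 in the 13 N1-CKO cells. With progenitor markers the values were 0.52 and 0.48 in WT cells and 0.37 and 0.39 in N1-CKO cells. With photoreceptor markers they were -0.36 and -0.27, then -0.07 and 0.155. Neuronal markers gave 0.09 and 0.001, then 0.44 and 0.51. On low and high 18S arrays, the mean number of dividing markers was 8.75 and 4.0 in WT cells and 2.375 and 3.0 in N1-CKO cells. Müller glia markers had a median of -0.99, with 5 of 7 lower. Markers of other cells were nearly all undetected. All 5 of pigment epithelium, 5 of 6 of microglia (all but C1qa, seen in 1 cell) and 4 of 5 of endothelium were detected in 0 cells, and Kdr, which retinal progenitors also express, in 9 WT and 3 N1-CKO cells. Of 2 erythroid markers measured, Hba-a1 was detected in 1 cell of each group. The part of cell type in the respiratory genes was not tested.

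Other mitochondrial genes were read in lists drawn up with earlier results known, beside the 48.5% of all genes that had higher means. The 12 carriers and mobile electron carriers, such as the adenine nucleotide translocases, had 8 higher and 4 lower means (median 0.41), with Etfa, an electron transfer flavoprotein subunit, at 2.13 (5 and 8 cells) and Slc25a5 at 1.31 (10 and 12 cells). The 16 genes of the citric acid cycle and pyruvate dehydrogenase had 11 higher and 5 lower (median 0.34), with Sucla2 at -2.51 (6 and 3 cells) and Dlat at 1.09 (2 and 5 cells). Of 29 assembly factors 14 were higher and 15 lower (median -0.16), with Sco2, a copper chaperone of complex IV, at -3.05 (6 and 0 cells) and Ttc19 at -2.0 (8 and 4 cells). Of 73 mitochondrial ribosomal protein genes 33 were higher and 40 lower (median -0.13), with 11 past 1 upward and 19 downward, where 19.1% and 22.3% of all genes were past it. Mrpl41 differed by -4.00 (11 and 6 cells) and Mrpl40 by -2.98 (8 and 3 cells).

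The median regulator of these genes was detected in 4 of 26 cells, against 1 cell for the median of all genes and 21 for the respiratory genes. The coactivator genes Ppargc1a and Ppargc1b were detected in 0 cells. Of 10 regulators detected in at least 2 cells, 8 had lower means in N1-CKO cells (median -0.25). Of all genes 48.5% had higher means, and their median was -0.04. The 2 higher regulators were Pprc1 at 0.63 (2 and 3 cells) and Polrmt at 0.23 (2 and 3 cells). Gabpa, a subunit of GABP, was detected in 5 cells of WT and 1 of N1-CKO (-2.38), Yy1 in 9 and 7 cells (-1.07), and Nrf1 in 1 and 1 cells (-0.25).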

How the data were processed

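Each of 26 cells was hybridised to its own array after poly-A based amplification with oligo dT primers, per the labels' protocols, so signal comes from near transcript ends. The authors deposited linear intensity values, and the submitters' processing notes name MAS5. Every array had a trimmed mean (2% off either end) of 500.0, so total RNA per cell cannot be read.

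Signals were floored at the pooled median (25.02), and log2 was taken with pandas 2.3.3 and numpy 2.4.6. The probe set with the highest mean stood for its gene, which for 43 of 82 genes is one marked as shared between transcripts. Arrays were split at the largest gap in 18S control signal. RefSeq's GRCm38.p6 tables gave promoters and names. The script was tested on simulated data.

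Members and lists were chosen with earlier results of these data known. Genes named are, by complex, the 2 highest and 2 lowest differences among members detected in at least 6 cells, up to 6 detected in the most cells, all Sdh genes and the isoform families, and the 2 largest differences of each related list among genes detected in at least 6 cells. Ndufa3, Ndufa12, Ndufa13, Ndufb9, Ndufb10, Ndufc2, Uqcr10, Uqcrh, Cox5b, Atp5e, Ndufb4, Cox7b2, Cox7c, Kdr, C1qa, Hba-a1, Nrf1, Pprc1, Polrmt, Ppargc1a and Ppargc1b were named after their values were seen. Cyc1 and Atpif1 were also named after their values were seen. Alternatives changed the floor, probe set rule, scaling, averaging, detection percentile, members and cells used.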

Additional observations from a re-analysis of the deposited data

How the results depend on the processing

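The sign of the small median differences depends on the processing. The median of -0.22 was 0.05 with a common 90th percentile, 0.18 with medians over cells, 0.06 on high and 0.13 on low 18S arrays, and -0.20 to -0.09 under the other settings that changed it. With each cell left out in turn, the median difference ranged from -0.33 to 0.05, genes past 1 log2 unit from 10 to 17 upward and 14 to 21 downward, and 12 of the 29 genes past 1 came under it without some cell. None of the 29 turned sign, but genes chosen for a difference of at least 1 could hardly do so without 1 cell.

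With the mean of all probe sets, 9 genes were past 1 upward and 13 downward. Average signals (log2) were 10.65 for WT and 10.59 for N1-CKO, and Sdha differed by -0.021. Without probe sets marked as shared, counts were 7 and 6, medians of genes detected 38 and 39, mean signals 10.29 and 10.20, and Uqcrq differed by 0.14. In that setting genes with shared probe sets only fell out. Some others, among them Uqcrq, Ndufb8 and Ndufa12, were read by a probe set detected in 0 cells. They stayed in the counts because the list of genes detected in at least 2 cells was kept from the main setting. With medians over cells, counts were 7 and 8, complex II had 0.85, Cox4i1 0.17 and Cox6b1 0.046. On high 18S arrays, with 5 cells in each group, 23 genes were past 1 upward and Cox4i2 differed by 3.37. Other genes were past 1 downward on these arrays, among them Sdhc (-5.32), Cox6b1 (-5.28), Ndufb8 (-4.63) and Uqcrq (-4.27). The median over all genes was 0.18 there. The share of all genes past 1 was not computed on these arrays or under the other settings with counts here. On low 18S arrays complex III had 0.63, Cox4i1 0.26, Cox6b1 0.36, Ndufs4 -0.26, Sdhc 0.18 and Uqcrq 0.17. With only the cells whose Gapdh ratio did not exceed 3, complex II had 0.92. Detection at the 95th percentile gave medians of 47 and 49 genes, and a limit of 2 log2 units left 2 upward and 2 downward. The medians of the complexes also turned positive: complex I on high 18S arrays (0.25) and with medians over cells (0.03), complex II without shared probe sets (0.46), on high (0.06) and low (0.13) 18S arrays and with detection at the 85th percentile (0.02), and complex III with medians over cells (0.16) and on high 18S arrays (0.20). Complex IV did so without shared probe sets (0.07), with medians over cells (0.18), on low 18S arrays (0.36) and with the 85th percentile (0.09). Complex V did so with a common 90th percentile (0.13), with medians over cells (0.25), on low 18S arrays (0.13) and at a Gapdh ratio of at most 3 (0.04). The difference in average signal, -0.10, was 0.12 with a common 90th percentile, 0.11 with medians over cells and 0.02 on high 18S arrays. Scaling arrays to a common 90th percentile moved the median of all genes from -0.04 to 0.11. The cause of these changes was not tested. Members detected in at least 20 cells and the values without N1-CKO cell 10 were added after the data were seen.

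No paired analysis was possible because the numbers 1 to 13 only name cells in each group and no test was made. Signal over background limits the genes seen in few cells.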
